A study of Mus musculus with 15 samples.

Results

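Scavenger receptors are surface and lysosomal proteins with which macrophages bind modified lipoproteins, bacteria, haemoglobin complexes and dying cells. They are grouped by structure into lettered classes, and several have more than 1 kind of ligand. In macrophages, modified lipoprotein entering through these receptors is not limited by the cell's own cholesterol content in the way that uptake through the LDL receptor is. The genes described here are Marco and Msr1 of class A, Cd36, Scarb1 and Scarb2 of class B, Cd68 of class D, Olr1 of class E, Stab1 of class H and Cd163 of class I. They were chosen by symbol, with the probe set of highest mean kept for each gene, and they are 9 of 22180 genes with a probe set carrying a single symbol. Each of the 9 had 1 probe set.

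RNA was measured in RAW264.7 cells, a transformed mouse macrophage line, so that all groups share this 1 line and contain no other cells of a tissue. LPS, the endotoxin of Gram-negative bacteria, was given at 1.0 µg/mL after 30 min with a compound or vehicle, and cells were harvested after 24 h. The compounds, 13-HDHEA and 16-HDHEA, are hydroxylated ethanolamides of docosahexaenoic acid that bear the hydroxyl group on different carbons. The 5 groups of 3 arrays were LPS with 5.0 µM 13-HDHEA, LPS with 5.0 µM 16-HDHEA, LPS with 2.5 µM of each compound (combined), LPS with vehicle, and no LPS with vehicle. Vehicle was 0.1% ethanol, which every group received, and cells without LPS received PBS in its place. The 3 replicates of each group carry 3 experiment identifiers in the labels, shared across groups, and the tests below treat each array as a sample.

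Values are log2 expression from RMA, which corrects background, equalises the distributions of the arrays and summarises the probes of a probe set. A log2 difference of 1 is a doubling. Array medians ran from 3.62 to 3.69. A gene was tested where it exceeded the array's own 40th percentile, between 3.16 and 3.22, in at least 3 arrays, which 15468 genes did. By this filter 6 of the 9 receptors were tested, while Cd36, Olr1 and Cd163 lay below the 40th percentile in all 15 arrays. All 12 macrophage markers exceeded it in every array. Their mean log2 value was 10.72 to 10.81 in LPS with vehicle and 10.20 to 10.33 without LPS. The median log2 difference of the 12 was 0.04, with 6 higher and 6 lower in LPS with vehicle. With cells measured in bulk, fewer cells of the line expressing a gene and less RNA per cell cannot be told apart.

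LPS changed 4 of the 6 tested receptors. Marco and Stab1 were higher and Scarb1 and Scarb2 lower in LPS with vehicle than without LPS, by limma with Benjamini-Hochberg adjustment over all genes tested. Msr1 and Cd68 did not pass. Marco moved by more than 5 on the log2 scale and the other 3 by less than 1. Of all genes tested, 13.5% rose, 16.3% fell and 29.8% changed in either direction, against which 2 receptors that rose and 2 that fell are read. The median log2 difference of the 6 receptors was -0.02, beside 0 over all genes tested.

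Marco (probe set 17226327, Entrez gene 17167) encodes a trimeric class A receptor of the macrophage surface that binds bacteria and inhaled particles. Its log2 values were 10.49, 10.88 and 11.03 in LPS with vehicle, against 5.02, 5.22 and 5.17 without LPS. No array of either group came near the other group. The mean was 10.80 ± 0.276 in LPS with vehicle and 5.14 ± 0.106 without LPS (SD, n = 3 each), a difference of 5.67 (SE 0.198, 95% interval 5.24 to 6.09). This is 50.8-fold, with an adjusted p of 1.43e-10 by limma, and the differences within the 3 experiments were 5.48, 5.66 and 5.86. By rank on the array, the LPS groups placed Marco between percentiles 98.1 and 98.4 and the group without LPS at percentile 67.5, so that it lay above the filter in both states.

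**Figure D1:**
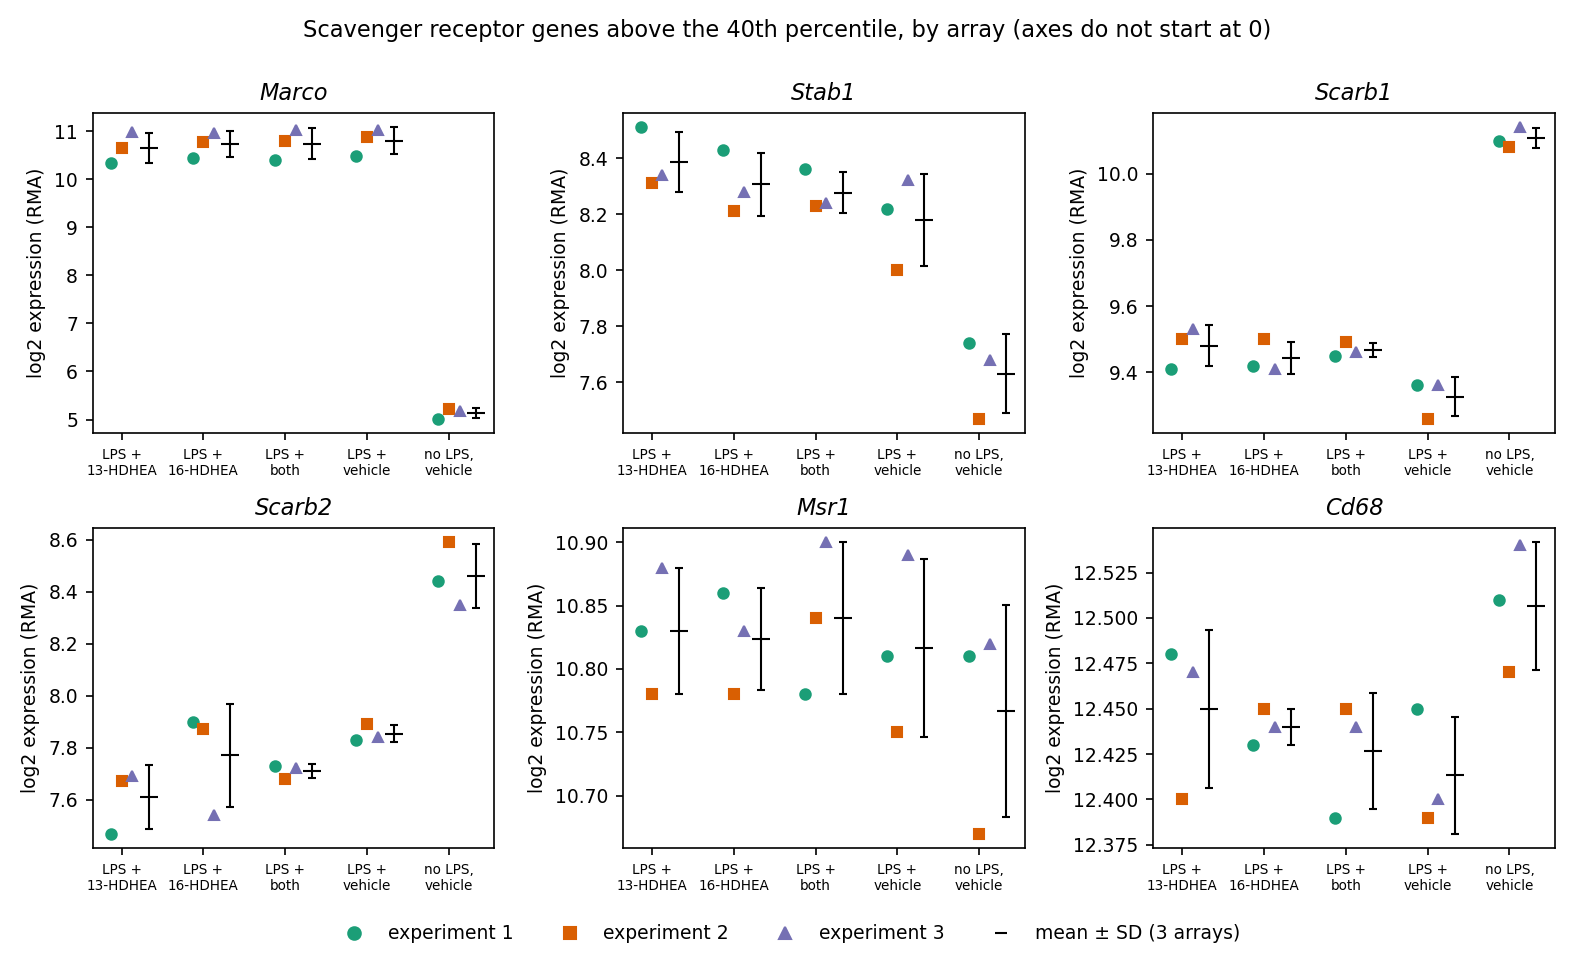
Log2 expression of the 6 receptors above the 40th percentile, with 1 panel per gene on its own axis, the 5 groups along the x axis, 1 point per array shaped by experiment, and the group mean with its SD as a bar. Marco separates the arrays with LPS, at 10.33 to 11.03, from those without, at 5.02 to 5.22, while Msr1 and Cd68 vary over less than 0.3 in all 15 arrays.

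The promoter window of Marco is printed because this gene showed the largest change of the 9. It runs from 250 bases before to 50 bases after the RefSeq start of the gene, at chr1:120504975-120505274 on the minus strand of GRCm38.p6, and the capitals mark its 1 match to a kappaB pattern, the kind of site that NF-kB is known to bind. The pattern is GGG and TTTCC with any 2 bases between them.
Marco: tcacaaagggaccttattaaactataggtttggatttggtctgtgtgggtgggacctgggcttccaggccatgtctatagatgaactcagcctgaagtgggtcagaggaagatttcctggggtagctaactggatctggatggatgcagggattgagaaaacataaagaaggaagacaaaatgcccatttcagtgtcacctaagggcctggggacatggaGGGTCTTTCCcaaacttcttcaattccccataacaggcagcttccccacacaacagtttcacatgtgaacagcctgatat
The match begins 30 bases before the start. Both strands of 32851 promoter windows of this length were searched, and 1.63% held the pattern. Among the 7 receptors with a window, Marco was the only gene with a match. A match describes the letters of the window and was not tested as a binding site.

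The LPS arrays differed in Marco by experiment. The 4 LPS groups gave 10.33 to 10.49 in experiment 1, 10.64 to 10.88 in experiment 2 and 10.96 to 11.03 in experiment 3, without overlap between experiments. Experiment 1 was lowest and experiment 3 highest in each of the 4 LPS groups. The share of all genes tested with a fixed order of experiments was not counted. Over all genes tested, 15 of 15 arrays deviated from their group means most like an array of their own experiment, so such differences are not particular to Marco. Without LPS the values were 5.02, 5.22 and 5.17 in the same experiments. Experiment 1 was again lowest there, while experiment 2 and not experiment 3 was highest. With the experiment as a block, the LPS difference had a narrower interval, 5.47 to 5.86.

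Msr1 (probe set 17508850, Entrez gene 20288), the other class A gene, encodes the receptor known for uptake of acetylated LDL. It had log2 values of 10.81, 10.75 and 10.89 in LPS with vehicle, against 10.81, 10.67 and 10.82 without LPS. The groups overlapped. The difference of 0.05 had a 95% interval of -0.11 to 0.21 and an adjusted p of 0.666 by limma. The interval's upper end is far below the smallest value for Marco in any experiment, 5.48.

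Scarb1 (probe set 17452957, Entrez gene 20778) encodes the class B receptor for HDL, which transfers cholesteryl esters across the membrane. Its log2 values were 9.36, 9.26 and 9.36 in LPS with vehicle, against 10.10, 10.08 and 10.14 without LPS. The groups did not overlap. Scarb1 fell by 0.78 with LPS (SE 0.0672, 95% interval -0.92 to -0.63), a 1.72-fold decrease with an adjusted p of 8.1e-07 by limma. Within experiments the differences were -0.73, -0.82 and -0.78.

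Scarb2 (probe set 17449749, Entrez gene 12492) encodes a class B protein of the lysosomal membrane that carries glucocerebrosidase to lysosomes. It had 7.83, 7.89 and 7.84 in LPS with vehicle, against 8.44, 8.59 and 8.35 without LPS. All arrays with LPS lay below all arrays without it. Scarb2 fell by 0.61 with LPS (SE 0.102, 95% interval -0.83 to -0.39), a 1.53-fold decrease with an adjusted p of 0.000354 by limma. The decrease was found in each experiment, with -0.61, -0.71 and -0.52.

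Stab1 (probe set 17304523, Entrez gene 192187) encodes stabilin-1, a class H receptor that clears modified LDL and matrix proteins. Its log2 values were 8.22, 8.0 and 8.32 in LPS with vehicle, against 7.74, 7.47 and 7.68 without LPS. The lowest array with LPS exceeded the highest without it. Stab1 rose by 0.55 with LPS (SE 0.104, 95% interval 0.33 to 0.78), which is 1.47-fold with an adjusted p of 0.000919 by limma. The differences within experiments were 0.49, 0.53 and 0.64. Among the arrays with LPS, experiment 2 was lowest for Stab1 in all 4 groups, and the share of all genes of which this holds was not counted.

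The windows of Stab1 and Scarb2 are printed beside that of Marco because these genes also changed with LPS and have an entry in the table of promoter windows. Stab1 lies at chr14:31168592-31168891 and Scarb2 at chr5:92505608-92505907, both on the minus strand of GRCm38.p6. Capitals in Scarb2 mark a match to TGACNNNGC, the core of the antioxidant response element.
Stab1: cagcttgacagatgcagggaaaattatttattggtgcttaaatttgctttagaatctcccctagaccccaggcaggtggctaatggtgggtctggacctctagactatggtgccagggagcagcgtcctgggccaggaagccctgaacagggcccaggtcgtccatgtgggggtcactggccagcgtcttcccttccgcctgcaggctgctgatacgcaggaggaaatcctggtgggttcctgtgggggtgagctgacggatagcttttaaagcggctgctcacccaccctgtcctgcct
Scarb2: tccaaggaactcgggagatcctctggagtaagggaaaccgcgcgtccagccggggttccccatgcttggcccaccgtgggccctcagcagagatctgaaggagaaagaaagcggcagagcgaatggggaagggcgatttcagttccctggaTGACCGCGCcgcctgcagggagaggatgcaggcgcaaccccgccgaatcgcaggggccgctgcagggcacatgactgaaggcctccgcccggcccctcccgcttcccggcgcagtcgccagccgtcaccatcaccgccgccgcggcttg
The match in Scarb2 begins 99 bases before the start, and 12.4% of all windows held this pattern. Stab1 matched none of the 5 patterns searched, which were the kappaB pattern, TGACNNNGC, the AP-1 pattern TGANTCA, the interferon-stimulated response element (GAAA and GAAA with any 2 bases between them) and the PU.1 pattern GAGGAAGT. Of all windows, 7.81% held the AP-1 pattern, 3.44% the interferon one and 3.2% the PU.1 one. Cd68 held 2 AP-1 matches and Olr1 held 1. No receptor window held the interferon or the PU.1 pattern, and no match overlapped another.

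Cd68 (probe set 17264835, Entrez gene 12514) encodes macrosialin, a mucin-like protein of late endosomes and a common macrophage label. It had 12.45, 12.39 and 12.40 in LPS with vehicle, against 12.51, 12.47 and 12.54 without LPS. The groups did not overlap, as for 41.2% of all genes tested, and the difference was small. The log2 difference of -0.09 had a 95% interval of -0.22 to 0.05 and an adjusted p of 0.348 by limma. The differences within experiments were -0.05, -0.08 and -0.13.

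The 3 receptors below the filter were not tested, and their values are given as a description. Cd36 (probe set 17445715, Entrez gene 12491), a class B receptor for oxidised LDL and fatty acids, ranged from 2.30 to 2.51 in LPS with vehicle and from 2.28 to 2.59 without LPS. Olr1 (probe set 17471550, Entrez gene 108078), a lectin-like receptor for oxidised LDL, ranged from 2.35 to 2.41 in LPS with vehicle and from 1.94 to 2.48 without LPS. Cd163 (probe set 17462843, Entrez gene 93671), the haptoglobin-haemoglobin receptor, ranged from 2.69 to 2.90 in LPS with vehicle and from 2.82 to 2.92 without LPS. The ranges of all 3 genes overlapped between the groups. In the 9 arrays with HDHEA, Cd36 lay between 2.16 and 2.73, Olr1 between 2.28 and 2.77 and Cd163 between 2.75 and 3.10. Their ranks on the arrays ran from percentile 14 to 28.8 for Cd36, from 9.5 to 29.7 for Olr1 and from 27.8 to 37.9 for Cd163. The closest approach to the filter was 0.43 below it for Cd36, 0.41 for Olr1 and 0.09 for Cd163. Values this dim do not show whether a transcript is absent.

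**Figure D2:**
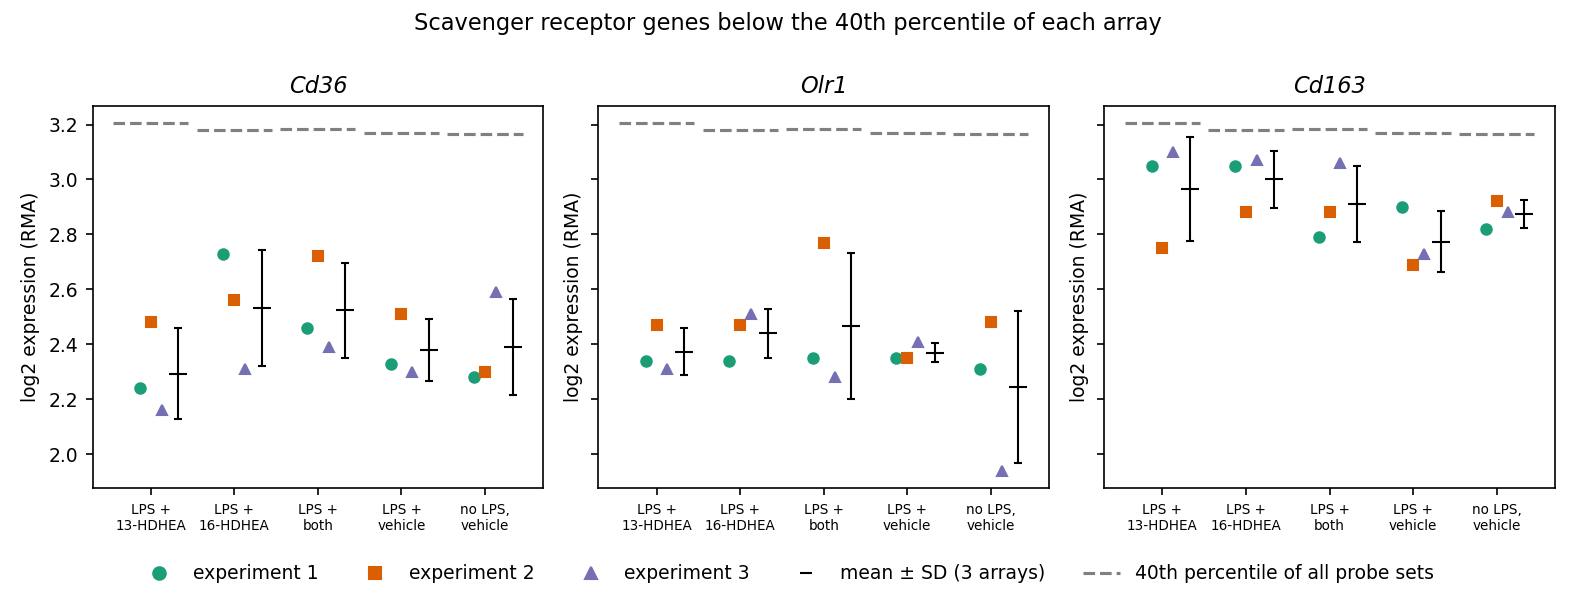
Log2 expression of Cd36, Olr1 and Cd163, with the groups along the x axis, 1 point per array shaped by experiment, the group mean with its SD as a bar, and a dashed line at the group's mean 40th percentile. All points lie below the dashed lines, the closest being a Cd163 array 0.09 below its own array's level.

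No tested receptor passed the test for either HDHEA or for the combination in cells with LPS. In each comparison with vehicle, 6 of 6 receptors had an adjusted p of 1 by limma. Over all genes, 0.00646% were called for 13-HDHEA, which is 1 gene, and 0% for 16-HDHEA and for the combination. At an unadjusted p under 0.05 660 genes (4.27%) stood for 13-HDHEA, 460 (2.97%) for 16-HDHEA and 539 (3.48%) for the combination. They included 2 receptors, Scarb1 and Scarb2, for 13-HDHEA and 0 for the other treatments. The 3 comparisons share the vehicle arrays, so their values are given side by side and not as independent repeats.

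Scarb1 had 9.41, 9.50 and 9.53 with 13-HDHEA, 9.42, 9.50 and 9.41 with 16-HDHEA and 9.45, 9.49 and 9.46 with the combination, against 9.36, 9.26 and 9.36 with vehicle. Every HDHEA array lay above every vehicle array. The log2 differences from vehicle were 0.15 (95% interval 0.00 to 0.29, unadjusted p = 0.0440), 0.11 (-0.03 to 0.26) and 0.13 (-0.01 to 0.28) in the same order, with limma. For the mean of the 3 HDHEA groups it was 0.13 (0.01 to 0.25), with an unadjusted p of 0.0308 and an adjusted p of 1 by limma. In that comparison 0% of all genes were called, and 586 (3.79%) had an unadjusted p under 0.05. By experiment that difference was 0.06, 0.23 and 0.10, the highest in experiment 2, where vehicle was lowest. The 9 HDHEA arrays did not overlap the 3 vehicle arrays for 0.692% of all genes tested, 107 in number. The HDHEA levels remained below the 10.08 to 10.14 of cells without LPS.

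Scarb2 had 7.47, 7.67 and 7.69 with 13-HDHEA, 7.90, 7.87 and 7.54 with 16-HDHEA and 7.73, 7.68 and 7.72 with the combination, against 7.83, 7.89 and 7.84 with vehicle. The 13-HDHEA and combined arrays did not overlap vehicle, whereas those with 16-HDHEA lay on both sides of it. The difference for 13-HDHEA was -0.24 (95% interval -0.46 to -0.02, unadjusted p = 0.0324, adjusted p = 1 by limma), with -0.37, -0.22 and -0.14 within experiments. It was -0.08 (-0.30 to 0.14) for 16-HDHEA and -0.14 (-0.36 to 0.08) for the combination. Of all genes tested, the groups did not overlap for 7.93% with 13-HDHEA, 7.16% with 16-HDHEA and 6.42% with the combination.

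Stab1 had 8.51, 8.31 and 8.34 with 13-HDHEA, 8.43, 8.21 and 8.28 with 16-HDHEA and 8.36, 8.23 and 8.24 with the combination, against 8.22, 8.0 and 8.32 with vehicle. All 3 groups overlapped vehicle. The differences from vehicle were 0.20 (-0.02 to 0.43), 0.13 (-0.10 to 0.35) and 0.09 (-0.13 to 0.32) in that order. Within experiments the difference with 13-HDHEA was 0.28, 0.30 and 0.02, above 0 in each. With the experiment as a block its interval was 0.04 to 0.36, with an adjusted p of 0.763 by limma. With 16-HDHEA the experiments gave 0.21, 0.21 and -0.04, and with the combination 0.13, 0.22 and -0.08, so the sign was not shared.

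For Marco the corresponding values were 10.33, 10.64 and 10.97 with 13-HDHEA, 10.43, 10.78 and 10.96 with 16-HDHEA and 10.39, 10.80 and 11.03 with the combination, beside the vehicle values above. The ranges of the groups overlapped. The differences were -0.15 (-0.58 to 0.27), -0.08 (-0.51 to 0.35) and -0.06 (-0.49 to 0.36). Within experiments they were -0.16, -0.24 and -0.05 with 13-HDHEA, -0.07, -0.10 and -0.07 with 16-HDHEA and -0.10, -0.09 and 0.00 with the combination. Marco was thus at or below vehicle of the same experiment, to 2 decimals, in each HDHEA array, while the 3 treatments share the vehicle arrays. With the experiment as a block the intervals were narrower, -0.35 to 0.05 for 13-HDHEA, -0.28 to 0.12 for 16-HDHEA and -0.26 to 0.13 for the combination, and none passed (lowest adjusted p = 0.857 by limma). For Msr1 they were 0.02 (-0.14 to 0.17), 0.01 (-0.15 to 0.16) and 0.02 (-0.13 to 0.18), and for Cd68 0.04 (-0.10 to 0.17), 0.02 (-0.11 to 0.16) and 0.01 (-0.13 to 0.15). The intervals of these 2 genes stayed within 0.18 of 0.

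**Figure D3:**
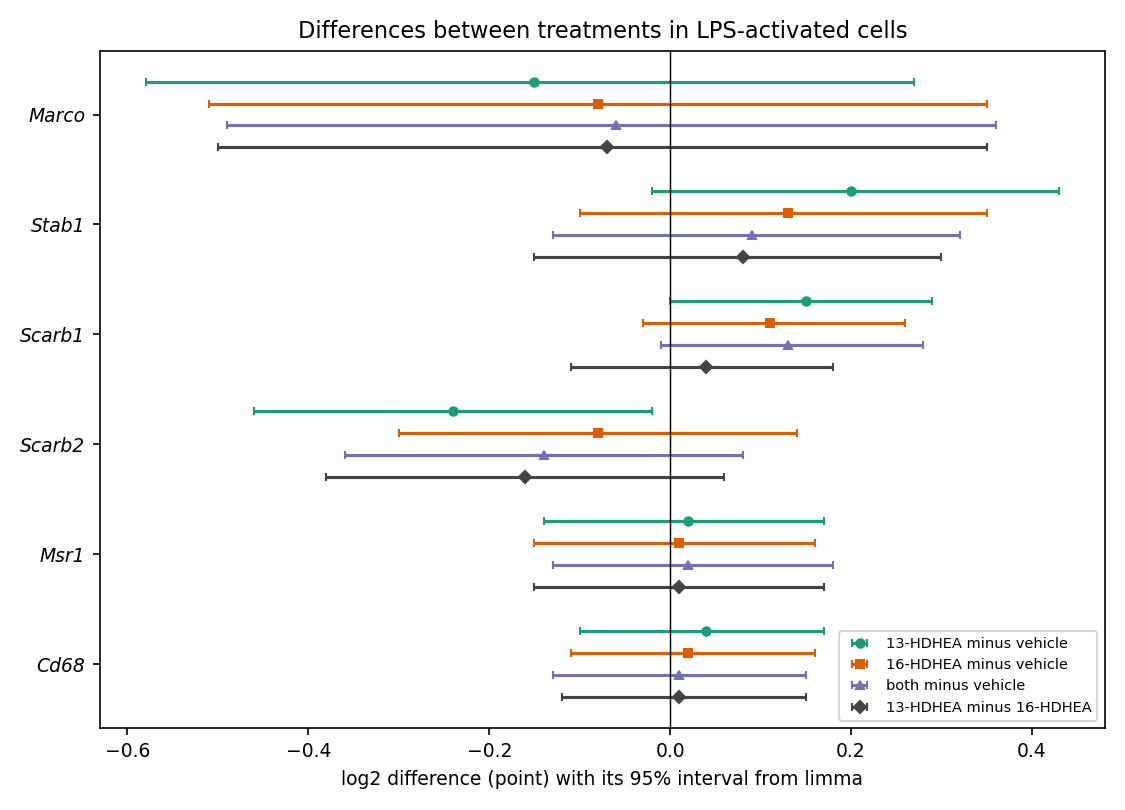
Log2 differences of the 6 tested receptors (points) with their 95% intervals from limma (bars), for 13-HDHEA, 16-HDHEA and both compounds, each minus vehicle, and for 13-HDHEA minus 16-HDHEA. The intervals of Msr1 and Cd68 are narrow around 0, and those of Marco are the widest. The intervals are not adjusted for the number of genes. With 13-HDHEA, that of Scarb2 lies below 0 at -0.46 to -0.02 and that of Scarb1 runs from 0.00 to 0.29. No difference shown passed after adjustment.

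The 2 compounds, which differ in the carbon that bears the hydroxyl group, were compared with each other at 5.0 µM and 24 h, the 1 pair with matched doses. No tested receptor passed, with an adjusted p of 1 for each by limma. The arrays of the 2 groups overlapped for each of the 6, while they did not overlap for 6.59% of all genes tested. The differences, 13-HDHEA minus 16-HDHEA, were -0.07 (95% interval -0.50 to 0.35) for Marco, 0.01 (-0.15 to 0.17) for Msr1 and 0.04 (-0.11 to 0.18) for Scarb1. They were -0.16 (-0.38 to 0.06) for Scarb2, 0.08 (-0.15 to 0.30) for Stab1 and 0.01 (-0.12 to 0.15) for Cd68. For Scarb2 the experiments gave -0.43, -0.21 and 0.15, so the sign was not shared. At an unadjusted p under 0.05 there were 480 genes (3.1%) and 0 receptors, and 0.00646% of all genes were called. The interval for Marco reached a difference of 0.50, and with the experiment as a block it was -0.27 to 0.12. These tests do not show that the compounds act alike. The combination held 2.5 µM of each compound, so its dose of each differs from the single treatments, and it was not compared with them.

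Set against cells without LPS, the mean of the 3 HDHEA groups gave 5.57 (95% interval 5.22 to 5.92, adjusted p = 1.19e-11) for Marco, 0.69 (0.51 to 0.88, 1.52e-05) for Stab1, -0.65 (-0.76 to -0.53, 3.91e-07) for Scarb1 and -0.77 (-0.94 to -0.59, 4.8e-06) for Scarb2, all by limma. The same 4 receptors passed in both comparisons, with the same directions, and Msr1 (adjusted p = 0.438) and Cd68 (adjusted p = 0.37) did not pass. The comparison shares the arrays without LPS with the one above, and 35.3% of all genes tested were called in it, 15.5% higher and 19.8% lower.

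The order of the group means can be read from these values. For Marco, Stab1, Scarb1 and Scarb2 the group without LPS stood apart with no overlap. LPS with vehicle alone did not overlap the group without LPS for 41.2% of all genes tested. The share for all 4 LPS groups together was not counted. Among the 4 LPS groups neighbours in the order overlapped, apart from Scarb1, where vehicle lay 0.11 below 16-HDHEA, its nearest group.

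The genes whose 5 group means, each centred on its own mean, lay closest to those of a receptor were named by the root mean square of the 5 differences. For Marco they were Ccl5 (0.0712) and Sprr2d (0.088), for Scarb1 Nelfcd (0.0173) and Dclk2 (0.0222). For Scarb2 they were Ctse (0.0275) and Pgm2l1 (0.0292), and for Stab1 Sik3 (0.0206) and Rasa4 (0.0229). The measure covers 5 groups, of which 4 received LPS.

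Other genes of the same pathways moved in both directions with LPS. Of 19 other scavenger receptors, 15 were tested, of which 2 rose and 4 fell, beside the 13.5% and 16.3% of all genes. Clec7a, the receptor for fungal beta-glucan, fell by 2.05 (adjusted p = 1.02e-05) and Colec12, a class A receptor with a lectin domain, fell by 0.87 (adjusted p = 3.76e-06), by limma. Cxcl16, a membrane chemokine that binds oxidised LDL, rose by 0.47 (adjusted p = 0.000332) and Cd44, the hyaluronan receptor, by 0.30 (adjusted p = 0.00289). The median of the 15 was -0.09.

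Of 16 genes of lipoprotein uptake and cholesterol handling, 12 were tested. Of these 2 rose and 6 fell, beside 13.5% and 16.3% of all genes, with a median of -0.24. Lpl, which hydrolyses triglyceride in lipoproteins, fell by 1.15 (adjusted p = 1.08e-06), Nceh1, a neutral cholesteryl ester hydrolase, by 0.95 (2.48e-06) and Lipa, its lysosomal counterpart, by 0.66 (1.02e-05), by limma. Abca1, which exports cholesterol to apolipoproteins, rose by 0.91 (adjusted p = 0.000147).

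Of 18 apoptotic cell receptors and bridging molecules, 17 were tested. Of these 2 rose and 5 fell, beside 13.5% and 16.3% of all genes, with a median of -0.05. Thbs1, a bridging molecule and a ligand of Cd36, rose by at least 1.61, since its mean without LPS lay below the 40th percentile (adjusted p = 1.56e-06 by limma). Gas6, the bridging ligand of Mertk and Axl, fell by 1.26 (adjusted p = 3.22e-05), and Dock1 and Elmo1, partners in engulfment, fell by 0.97 (1.82e-06) and 0.42 (0.000285). Mertk itself, the other gene of this list that rose, was higher by 1.36 (adjusted p = 0.000489 by limma). Axl did not pass (-0.02, adjusted p = 0.897).

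Of 10 genes of haemoglobin and haem handling, the pathway served by Cd163, 9 were tested. Of these 5 rose and 3 fell, beside 13.5% and 16.3% of all genes, with a median of 0.22. Blvrb, a biliverdin reductase, rose by 1.03 (adjusted p = 1.11e-06), the haem transporter Slc48a1 by 0.79 (1.37e-05), the haem oxygenase Hmox1 by 0.78 (0.000372) and haptoglobin, Hp, by 0.65 (0.00269), by limma. The 3 that fell were Slc40a1, by 0.91 (adjusted p = 0.00395), Adam17, by 0.35 (0.0084), and Blvra, by 0.34 (0.0248). Cd163 itself stayed below the filter.

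Of 15 regulators known to act on scavenger receptor genes, 12 were tested. Of these 3 rose and 3 fell, beside 13.5% and 16.3% of all genes, with a median of -0.17. Ppard, a fatty acid-sensing nuclear receptor, rose by 1.46 (adjusted p = 6.16e-05) and Cebpb, a transcription factor of the acute response, by 1.24 (1.82e-05), by limma. Pparg, a nuclear receptor under which Cd36 is induced in macrophages, was lower by at least 0.81, its mean with LPS being below the 40th percentile (adjusted p = 0.000451), and Tfeb, a regulator of lysosomal genes, fell by 0.71 (0.000118). With the experiment as a block, 3 regulators rose and 5 fell, beside 5313 of 15468 genes called in either direction. The block also gave 3 that rose and 7 that fell for lipoprotein and cholesterol handling, and 3 that rose and 6 that fell for the apoptotic cell list. The counts of the other scavenger receptors and of haem handling were the same with it. In every HDHEA comparison with vehicle or between compounds, 0 genes of these 5 lists were called by limma, and each list held 0 to 2 genes at an unadjusted p under 0.05.

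**Figure D4:**
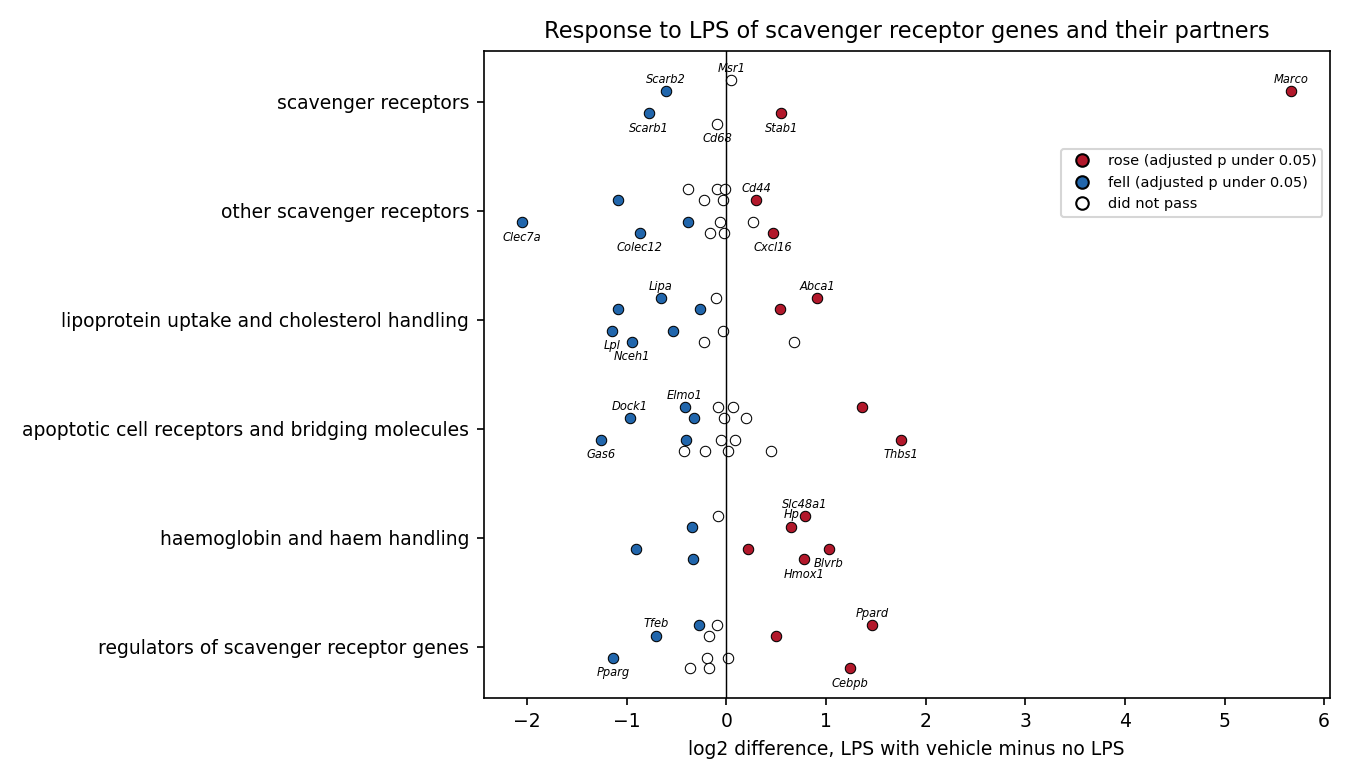
Log2 difference between LPS with vehicle and no LPS for each tested gene of the 6 lists, 1 row per list, coloured by whether it rose, fell or did not pass at an adjusted p under 0.05. Marco, at 5.67, lies far to the right of all other genes shown, and each row holds genes on both sides of 0.

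Markers of other cells were measured beside these results, and their part in them was not tested. Of the 12 macrophage markers, 3 rose and 2 fell with LPS, beside 13.5% and 16.3% of all genes tested. Adgre1 rose by 4.50, Fcgr1 by 1.56 and Cd14 by 0.30 (limma, highest adjusted p = 0.00433), and Tyrobp fell by 0.37 (adjusted p = 0.00491). Csf1r, the receptor for the macrophage growth factor M-CSF, fell by 0.24 (adjusted p = 0.0370), but did not pass without LPS vehicle replicate 1 (0.118) or 2 (0.0882), or without no-LPS replicate 3 (0.158). Csf1r also lost its call with no filter, with median centring and in a fit on only the groups compared. With the experiment as a block, 4 macrophage markers rose and 3 fell, beside 5313 of 15468 genes called in either direction.

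Of 6 neutrophil markers, 2 exceeded the 40th percentile in all arrays of both groups, and the mean log2 level of the list was 3.18 to 3.44 in LPS with vehicle and 3.05 to 3.16 without LPS. Among them S100a8, a calcium-binding protein that activated macrophages can also make, rose by 1.30 (adjusted p = 0.00536 by limma). The other 3 of 4 neutrophil markers tested did not pass, and of the 4 tested, 2 were higher and 2 lower. S100a9 lay below the filter. Of 6 lymphocyte markers, 0 exceeded the 40th percentile in all arrays of LPS with vehicle and 1 without LPS. Their list means were 2.71 to 3.05 in LPS with vehicle and 2.69 to 2.88 without LPS.

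Of 8 fibroblast markers, 5 exceeded the 40th percentile in LPS with vehicle and 4 without LPS, with list means of 3.44 to 3.48 in LPS with vehicle and 3.22 to 3.34 without LPS. Pdgfra rose by 0.96 (adjusted p = 0.0472 by limma). Its call was lost without LPS vehicle replicate 1 (0.127) or 2 (0.140), or without no-LPS replicate 1 (0.104) or 2 (0.190). The call was also lost with no filter and with repeated quantile normalization. Of 11 endothelial and epithelial markers, 8 exceeded the 40th percentile in LPS with vehicle and 9 without LPS. Their list means were 3.64 to 3.79 in LPS with vehicle and 3.64 to 3.70 without LPS. Vwf fell by 0.49 (adjusted p = 0.0136), but did not pass without LPS vehicle replicate 3 (0.0685) or no-LPS replicate 2 (0.0512). Cdh5 rose by 0.42 (adjusted p = 0.0412), but did not pass without any 1 of 5 of the 6 arrays (0.0664 to 0.174). Nor did Cdh5 pass with no filter or in a fit on only the groups compared.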

How the data were processed

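Total RNA of 15 samples was hybridised to Affymetrix whole-transcript arrays, per the labels' protocols. The authors deposited log2 values per probe set from RMA, per the submitters' processing notes. The sources used here give neither the version of RMA nor the chip definition. Quantile normalization hides any shift that most genes share, and changes of dim probe sets are compressed.

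Of 41345 probe sets, 23521 had 1 symbol in the platform's gene table, giving 22180 genes, with the probe set of highest mean kept; 15468 passed the filter. Group means over all 15 arrays were fitted with limma 3.58.1 in R 4.3.3 (10 residual degrees of freedom), two-sided, with Benjamini-Hochberg adjustment and calls under 0.05. Where the mean of a dimmer group lay below the 40th percentile, the distance of the brighter mean from that percentile is given. This distance does not allow for sampling error. Members, lists and the rule for named genes (the members, up to 4 genes per list by p with LPS, and 2 genes of like pattern) were chosen with earlier results of these data known. Mertk, Axl, Slc40a1, Adam17 and Blvra are named outside this rule, beside genes of their lists. The fit was tested on simulated data.

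Arrays with the same number come from the same experiment, per the labels: their deviations from group means correlated at 0.0835 to 0.404 over 30 pairs, and 15 of 15 arrays correlated best with their own number. Promoter windows come from RefSeq, GRCm38.p6, in which 7 of 9 members matched. The 3 arrays per group limit precision.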

Additional observations from a re-analysis of the deposited data

How the results depend on the processing

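Each tested receptor kept its side of the threshold under every alternative run, and Marco, Scarb1, Scarb2 and Stab1 also kept their direction with LPS: the replicate block, no filter, a 60th percentile filter, median centring, repeated quantile normalization, limma with trend and robust, a fit on only the groups compared, the mean of all probe sets, and leaving out each array of the comparison. With LPS the differences stayed at 5.55 to 5.82 for Marco, -0.80 to -0.72 for Scarb1, -0.67 to -0.54 for Scarb2 and 0.47 to 0.64 for Stab1, with highest adjusted p-values of 0.000393, 0.0025 and 0.0116 for the last 3 by limma. With the experiment as a block, as the shared experiments allow, 5313 genes were called with LPS in place of 4616, Marco had an adjusted p of 2.43e-12 and Stab1 of 9.2e-05, and the block changed no receptor call. Differences near 0 in the HDHEA comparisons within cells given LPS did not all keep their sign: Marco ran from -0.31 to 0.01 for 13-HDHEA, -0.23 to 0.07 for 16-HDHEA and -0.22 to 0.11 for the combination, each minus vehicle, and from -0.24 to 0.09 for 13-HDHEA minus 16-HDHEA. Scarb2 for 16-HDHEA ran from -0.14 to 0.03, and Msr1 and Cd68 also changed sign there, within 0.06 of 0. Some list genes called with LPS lost their call in some of 14 alternative runs. Npc1 lost it in 9, Scarf2 in 5, Blvra and Nr1h3 in 4 each, Mfge8 in 3, and Fth1 and Nfe2l2 in 2 each. The counts of genes that rose or fell in the lists depend on these calls. The count of genes called over all genes was also less steady in comparisons with hardly any. For 13-HDHEA against vehicle it was 1, but 0 on only the groups compared, and 1 to 2 when arrays were left out, with 2 without LPS vehicle replicate 1. For 13-HDHEA against 16-HDHEA it was 1, but 0 on only the groups compared, and 0 to 1 when arrays were left out, with 0 without 13-HDHEA replicate 2 or 3 or 16-HDHEA replicate 2 or 3. The cause was not tested. Using another probe set alone gave no value, since each receptor has 1. For the same reason the mean of all probe sets could not change a receptor's values. The filter runs could not change a receptor's difference either, but only its estimated spread and the adjustment. Depth here is signal over background: Cd36, Olr1 and Cd163 were too dim for the filter (without it, limma gave adjusted p-values of 0.632 to 0.985 with LPS and 1 in each HDHEA comparison in cells with LPS). The intervals of Marco under HDHEA span about 0.4 on either side without the block and about 0.2 with it, on the same 3 arrays a group.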
